A study of Mus musculus with 8 samples.

Results

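Cytosolic ribosomal proteins are the protein subunits of the ribosome that translates mRNA in the cytoplasm. The genes described here were taken by a rule on their names: symbols made of Rpl or Rps, a number and at most 1 letter, together with the stalk proteins Rplp0 to Rplp2 and *Rpsa*, leaving out Rps6 kinases and pseudogenes. Of the 15859 genes in the deposited count table, 4 genes under this rule are described, namely *Rplp2* of the large subunit and *Rpsa*, *Rps7* and *Rps9* of the small subunit. Apart from *Fau* and *Gnb2l1*, which have other symbols, further ribosomal protein genes were not analysed here, so the 4 genes are not a picture of the whole ribosome.

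The RNA came from the distal colon of 8 male mice, 2 per group in 4 groups. Mice with *Hsf1* (WT) were compared with *Hsf1* null mice, all on a mixed BALB/c x 129SvEV background. The null mice carry the loss of *Hsf1*, which encodes the transcription factor that switches on the heat shock response, in every cell of the body. The treated mice received 10 mg/kg of the carcinogen azoxymethane (AOM) by injection into the peritoneum at 8 weeks of age and, starting on day 7, drinking water with 1.5% dextran sulfate sodium (DSS) for 5 days, an agent that damages the gut lining. The controls, called day 0, were untreated and of the same age as the treated mice (10 weeks). The sample titles and the study place the treated mice at day 15, whereas the protocol in the labels ends after the 5 days of DSS. Total counts were between 7379442 and 12440257 in 6 libraries, and were 2553348 and 2675976 in the untreated mouse numbered 2 of each genotype (WT and *Hsf1* null, in that order). *Hsf1* mRNA was present at 36.5 to 50.5 CPM (read counts scaled to a common library total with TMM factors) in the 4 WT mice and at 9.10 to 14.0 CPM in the 4 *Hsf1* null mice, without overlap.

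Ribosomal proteins are made in large and roughly matched amounts, and a ribosome needs 1 copy of almost every one of them. In mammals this match is set in part by translation: most of their mRNAs begin with a short run of pyrimidines at the cap, the 5′ terminal oligopyrimidine (TOP) tract, through which mTOR signaling controls how strongly they are translated. Colon epithelium renews itself throughout life and needs much new ribosome synthesis. RPLP2 belongs to the acidic stalk of the large subunit, which draws elongation factors to the ribosome. RPSA, RPS7 and RPS9 sit in the small subunit, where RPS7 and RPS9 bind its rRNA. RPSA is also known as a precursor of a laminin receptor, and free RPS7 is known to bind the p53 regulator MDM2.

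The start sites are shown because the TOP tract is the sequence feature that ribosomal protein genes are known to share. RefSeq (GRCm38.p6) held a promoter for each of the 4 genes. Each line gives 30 bases around the annotated start in the direction of the gene, of which the first 12 lie upstream. Capitals mark a run of 5 or more pyrimidines, counted from the C nearest to the start that opens one, at most 5 bases from it. In *Rplp2* and *Rps9* the pyrimidines continue upstream of the capitals.
*Rplp2* (chr7:141447639-141447668, plus strand): gtcagcgtcttcCTTTCgccgccggacgcc
*Rps9* (chr7:3704029-3704058, plus strand): gccttgtctCTCTTTgtctcgggcctgagt
*Rpsa* (chr9:120127754-120127783, plus strand): ggttatttaaggacgtcatttccggccgcc
*Rps7* (chr12:28635936-28635965, minus strand): tccggtttccacccacctacttccgctgtc
Such a run was present at the start of *Rplp2* and of *Rps9* and absent within 5 bases of the start of *Rpsa* and *Rps7*. It was thus found in 2 of 4 genes, against 18.3% of all 32851 RefSeq promoters. In the *Rps7* window a pyrimidine run that begins with C lies further downstream, outside that limit. From 250 bases before to 50 bases after the start, the core of the heat shock element, GAANNTTC, occurred in 1 of the 4 genes, *Rps7*, at position -150 from the start, against 7.9% of all promoters. The ETS motif CCGGAAG occurred in 3 of the 4 (*Rplp2* at -108, *Rpsa* at -188 and *Rps7* at -14), against 8.9% of all promoters and 14.6% of those of genes in the count table. The YY1 motif AAGATGGC and the E-box CACGTG were found in none of the 4 and in 2.7% and 7.2% of all promoters. These motifs were searched on both strands, apart from the TOP run, and a match describes letters only.

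The 4 genes lie on 3 chromosomes, none of them the chromosome of *Hsf1*. In GENCODE M21 on GRCm38, *Rplp2* spans chr7:141447370-141451585, *Rps9* chr7:3703993-3706897, *Rps7* chr12:28630854-28635953 and *Rpsa* chr9:120127689-120132369. Processed pseudogenes copy many of these mRNAs. Of all 50-base windows of the principal transcript, the share found without mismatch in another annotated gene was 26.8% for *Rps9*, 30.7% for *Rplp2*, 43.9% for *Rpsa* and 59.9% for *Rps7*. Reads from such windows can be split or lost in counting, and how they were counted is not given in the sources used here, so the counts are uncertain to that extent, with the largest shares in *Rps7* and *Rpsa*. No gene on the opposite strand overlaps any of the 4. Inside *Rpsa* and *Rplp2* lie 3 and 1 annotated snoRNA genes.

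All 4 genes were far above the filter on low counts (a mean normalized count above 5, passed by 14371 genes) and stood near the top of the table. By mean CPM over the 8 mice they ranked 22 (*Rplp2*), 24 (*Rpsa*), 33 (*Rps9*) and 97 (*Rps7*) of 14371. Levels can be compared between genes only per length of transcript. On that scale the mean level over 8 mice was 2213 CPM per kb for *Rplp2*, 1879 for *Rps9*, 1024 for *Rpsa* and 978 for *Rps7*. The ranges over mice were 923 to 4305, 1240 to 2484, 673 to 1369 and 431 to 1481 CPM per kb in the same order, so each gene in this order overlapped with the next. Together the 4 genes took 0.477% to 0.931% of the counts of a library.

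The members differed in how steady they were. The SD of log2 CPM over the 8 mice was 0.77 for *Rplp2* and 0.62 for *Rps7*, above 83.1% and 69.0% of tested genes, and 0.44 and 0.35 for *Rpsa* and *Rps9*, below the median of tested genes (0.49). Pearson's r of log2 CPM over the 8 mice was 0.77 for *Rplp2* with *Rpsa*, 0.72 for *Rplp2* with *Rps9* and 0.39 for *Rpsa* with *Rps9*. *Rps7* moved apart from the others, with r = -0.71 for *Rpsa*, -0.63 for *Rplp2* and -0.28 for *Rps9*. The r values are given as a description over 8 mice that share library scaling and the 4 groups.

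**Figure D1:**
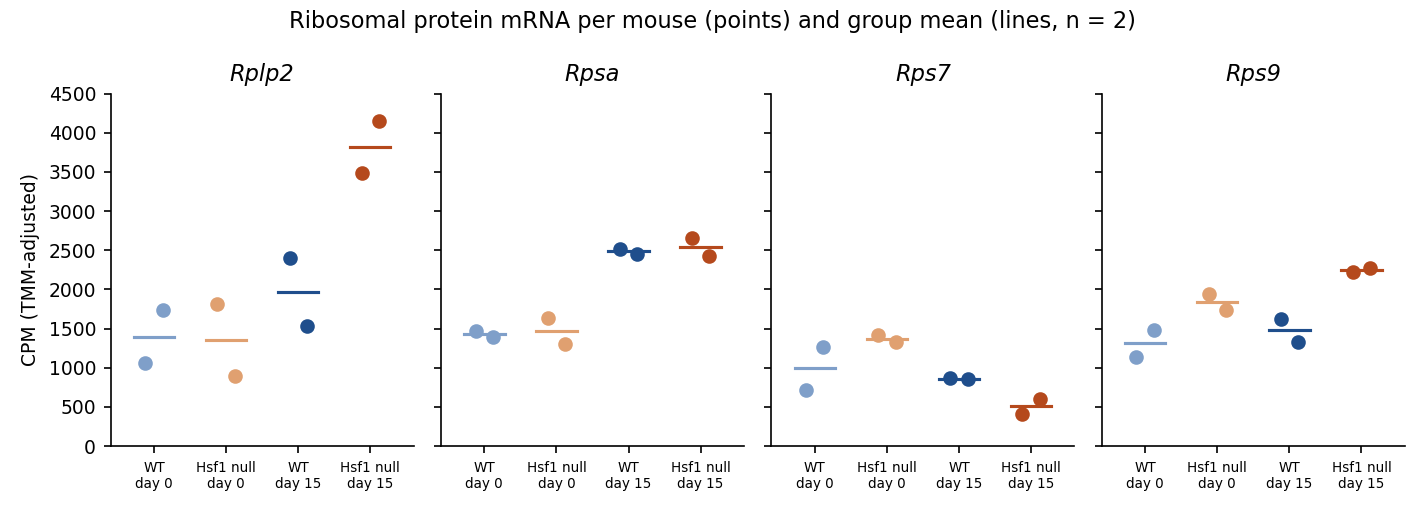
CPM (linear axis, TMM scaling) of the 4 ribosomal protein genes in each mouse (points) and the mean of each group (lines, n = 2). *Rplp2* reached 3482 and 4150 CPM in treated *Hsf1* null mice while *Rps7* stood at 412 and 599 CPM in the same mice, and *Rpsa* was higher at day 15 than at day 0 in all mice of both genotypes.

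The first question was how the genes responded to AOM-DSS in mice without *Hsf1*. In *Hsf1* null mice *Rplp2* rose 2.82-fold and *Rps7* fell 2.72-fold from day 0 to day 15, while *Rps9* differed by 1.22-fold and did not pass the test. Both changes passed edgeR's quasi-likelihood test with Benjamini-Hochberg adjustment over all genes and the threshold of an absolute log2 fold change above 1. Beside this 1 gene called higher and 1 called lower, 5.30% of all 14371 genes were called higher and 6.48% lower, 11.8% were called in either direction and 13.3% passed the adjusted p alone. DESeq2 called the same 2 genes of the 4 and 15.2% of all genes. Without the 2 shallow libraries, 0 of the 4 genes and 0 of all genes tested were called in *Hsf1* null mice.

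*Rplp2*, the stalk protein, was measured at 1817 and 890 CPM in the untreated and at 3482 and 4150 CPM in the treated *Hsf1* null mice. Both treated mice were above both untreated ones, and the untreated ones lay far apart from each other. The group means were 1354 ± 656 and 3816 ± 472 CPM (SD, n = 2), and the log2 fold change was 1.49 (SE 0.44, 95% interval 0.52 to 2.47, adjusted p = 0.0498). DESeq2 gave an adjusted p of 0.00171 for the same log2 fold change. The value of 890 CPM came from the shallow library: without it the log2 fold change was 1.07 (adjusted p = 0.317), and without the other untreated *Hsf1* null mouse it was 2.10 (adjusted p = 0.0400). The latter was the only one of the 8 mice that could be left out with the call kept: without either treated *Hsf1* null mouse the adjusted p was 0.102 and 0.125, and without any of the WT mice it was 0.053 to 0.0567. Correction for GC content and length lowered the log2 fold change to 1.06 (adjusted p = 0.112). The call was also lost with a replicate block in the model (adjusted p = 0.068). It was lost by a narrow margin with DESeq2's size factors and with upper-quartile factors (adjusted p = 0.0501 and 0.0503), but kept with library totals alone and with TMM factors computed without the members.

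*Rps7*, the small-subunit protein that is also needed to process rRNA, was measured at 1413 and 1332 CPM in untreated and at 412 and 599 CPM in treated *Hsf1* null mice. The groups were widely apart and did not overlap. The means were 1373 ± 56.8 and 505 ± 133 CPM (SD, n = 2), and *Rps7* fell by 1.44 on the log2 scale (SE 0.34, 95% interval -2.20 to -0.68, adjusted p = 0.0284). DESeq2 gave an adjusted p of 0.000391. Leaving out any of the 4 *Hsf1* null mice ended the call, with log2 fold changes from -1.74 to -1.19 and adjusted p from 0.0588 to 0.167, and the direction stayed the same in every alternative run.

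*Rpsa* was measured at 1639 and 1304 CPM in untreated and at 2653 and 2432 CPM in treated *Hsf1* null mice, without overlap. Its log2 fold change was 0.79 (SE 0.30, 95% interval 0.13 to 1.45), which did not pass edgeR's test (adjusted p = 0.101) and had an adjusted p of 0.0201 in DESeq2. *Rps9* was measured at 1946 and 1731 CPM at day 0 and at 2217 and 2270 CPM at day 15, with a log2 difference of 0.29 (SE 0.30, adjusted p = 0.545). The sign of the *Rps9* difference turned in 2 of 21 alternatives, with a lowest value of -0.119. All 4 genes had no overlap between the days, as did 61.3% of all genes. The median log2 fold change of the 4 genes was 0.54, against 0.05 over all genes tested, and with the GC and length correction it was 0.29.

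In WT mice none of the 4 genes passed edgeR's test for the change from day 0 to day 15, where 7.74% of all 14371 genes were called and 8.13% passed the adjusted p alone. Of the 4, *Rpsa* alone was under 0.05 before adjustment, and it was also the only gene of the 4 past an adjusted p of 0.05 in DESeq2, which called 0 of the 4 and 12.1% of all genes with the fold threshold. *Rpsa* was measured at 1475 and 1396 CPM in untreated and at 2519 and 2454 CPM in treated WT mice. Each pair of mice lay close together and the days did not overlap. The log2 fold change was 0.79 (SE 0.30, 95% interval 0.13 to 1.46, adjusted p = 0.120 in edgeR and 0.0201 in DESeq2), which is the size seen in *Hsf1* null mice.

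*Rplp2* was measured at 1060 and 1731 CPM in untreated and at 2401 and 1532 CPM in treated WT mice, and the days overlapped (log2 difference 0.50, SE 0.43, adjusted p = 0.485). *Rps7* was measured at 720 and 1269 CPM at day 0 and at 872 and 850 CPM at day 15, again with overlap (log2 difference -0.21, SE 0.34, adjusted p = 0.724). Its treated mice agreed closely and lay between the untreated ones. *Rps9* was measured at 1133 and 1486 CPM at day 0 and at 1626 and 1326 CPM at day 15. *Rps9* differed by 0.17 on the log2 scale, with overlap and an adjusted p of 0.745. With libraries left out, the log2 difference of *Rplp2* ranged from 0.136 to 0.909. That of *Rps7* ranged from -0.562 to 0.272 and that of *Rps9* from -0.012 to 0.398, so the sign of both could turn. Only 1 of the 4 genes, *Rpsa*, had no overlap between the days, against 62.5% of all genes. The median of the 4 genes was 0.33, against 0.00 over all genes (0.005), and it moved to 0.08 with the GC and length correction and to 0.09 without replicate 1 of WT day 0.

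**Figure D2:**
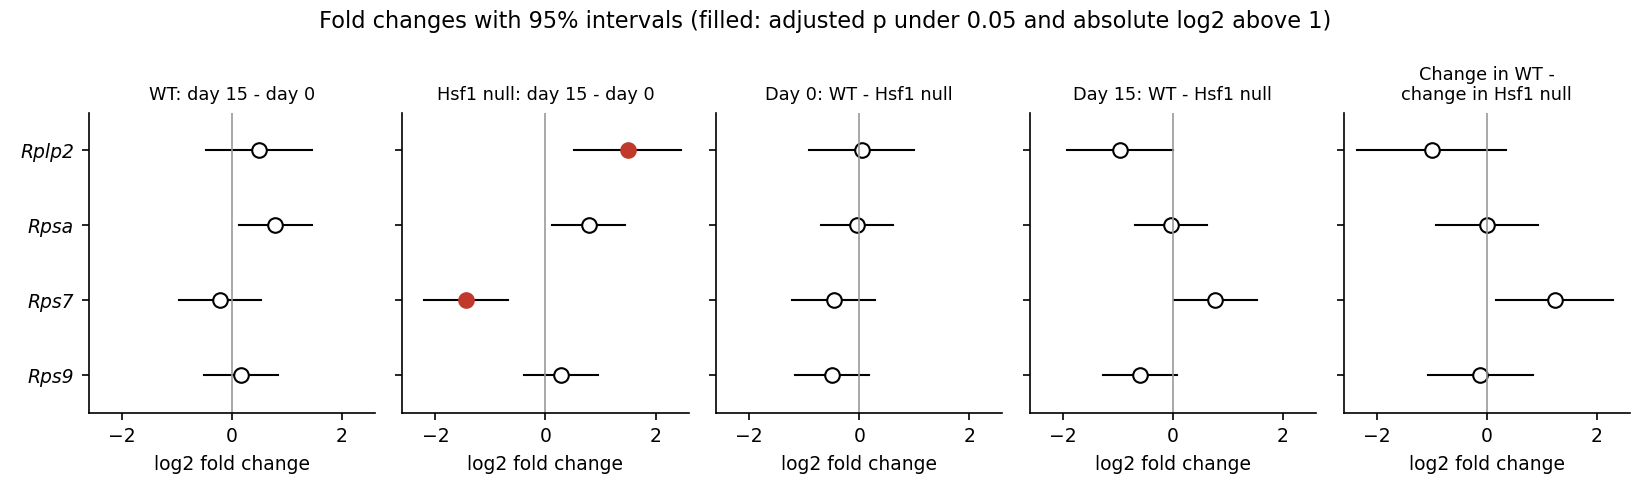
Log2 fold change (points) with its 95% interval (lines) for each gene in each comparison, from edgeR's fit over all 8 mice. Red points passed an adjusted p under 0.05 with an absolute log2 fold change above 1: *Rplp2* at 1.49 and *Rps7* at -1.44 in *Hsf1* null mice, and no point in the other panels.

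The second question was whether the genotypes differed. At day 15, *Rplp2* and *Rps9* were lower and *Rps7* was higher in both WT mice than in both *Hsf1* null mice, but 0 of the 4 genes passed edgeR's test, with or without the fold threshold, and DESeq2 called 0 as well, against 8.19% of all genes. The single gene under 0.05 before adjustment was *Rps7*. The share of all genes called was 3.17% by either rule. Groups without overlap were found for 3 of the 4 genes and for 54.8% of all genes. The log2 fold change of WT against *Hsf1* null was -0.96 for *Rplp2* (SE 0.43, 95% interval -1.92 to 0.01, adjusted p = 0.218) and 0.77 for *Rps7* (SE 0.34, 95% interval 0.02 to 1.52, adjusted p = 0.206). It was -0.60 for *Rps9* (SE 0.30, adjusted p = 0.260) and -0.03 for *Rpsa* (SE 0.30, 95% interval -0.69 to 0.63, adjusted p = 0.962). The levels of *Rpsa* in the 4 treated mice lay between 2432 and 2653 CPM. The median of the 4 genes was -0.32, against 0.04 over all genes (0.035).

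At day 0, with no treatment, *Rps9* also stood lower in WT than in *Hsf1* null mice, and *Rps7* did so too, opposite to its direction at day 15. edgeR called 0 of the 4 genes, 0 were under 0.05 before adjustment and DESeq2 called 0. The share of all genes called was 0% by either rule, with 904 genes under 0.05 before adjustment and 17 (0.118%) called by DESeq2. The log2 fold changes were -0.49 for *Rps9* (SE 0.30, adjusted p = 0.833) and -0.47 for *Rps7* (SE 0.34, adjusted p = 0.845). With libraries left out they ranged from -0.795 to -0.306 for *Rps9* and from -0.986 to -0.112 for *Rps7*. *Rplp2* (0.04) and *Rpsa* (-0.04) were near 0, with 95% intervals from -0.91 to 1.00 and from -0.70 to 0.62. With libraries left out *Rplp2* ranged from -0.792 to 0.648 and *Rpsa* from -0.192 to 0.138. Groups did not overlap for 2 of the 4 genes and for 37.1% of all genes. The median of the 4 genes was -0.25, against 0.01 over all genes. Without replicate 1 of WT day 0 it was -0.09, and without replicate 2 it was -0.55.

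Whether the response itself differed between genotypes was tested as an interaction. None of the 4 genes passed, and 0.00696% of all genes (1 gene) did by either rule. *Rps7* had the smallest p, the only gene of the 4 under 0.05 before adjustment: its change in WT exceeded that in *Hsf1* null mice by 1.23 on the log2 scale (SE 0.48, 95% interval 0.17 to 2.30, adjusted p = 0.52). For *Rplp2* the difference was -0.999 (SE 0.61, 95% interval -2.35 to 0.36, adjusted p = 0.684), and with libraries left out it ranged from -1.604 to -0.151. The changes of *Rpsa* differed by 0.00 (95% interval -0.93 to 0.94) and those of *Rps9* by -0.11 (-1.06 to 0.84). DESeq2 also called 0, against 0.807% of all genes. The comparisons share mice, so their values for 1 gene are not independent.

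The ratio of *Rplp2* to *Rps7* counts within a library, which no scaling between libraries can change, was looked at after the values of both genes were seen and is given without a test. It was 1.47 and 1.36 in untreated WT mice, and 1.29 and 0.668 in their *Hsf1* null counterparts. With treatment the WT mice had 2.75 and 1.80, and the *Hsf1* null mice 8.46 and 6.93. Both treated *Hsf1* null mice stood above all other mice, and the treated WT mice stood above the untreated mice of both genotypes. The lowest and highest libraries were 12.7-fold apart, the widest span of the 6 pairs of these genes. The other pairs with *Rps7* spanned 6.59-fold (*Rpsa*) and 4.60-fold (*Rps9*), and the 3 pairs without *Rps7* spanned 2.46-fold to 3.55-fold. Small-subunit counts summed over the 3 genes were 3.14 and 2.398 times those of *Rplp2* in untreated WT mice and 2.75 and 4.91 times in untreated *Hsf1* null mice. With treatment they were 2.09 and 3.02 times in WT and 1.52 and 1.28 times in *Hsf1* null mice. This is the balance of 3 genes against 1 and not that of the subunits.

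The share of library counts on the 4 genes was 0.477% and 0.580% in untreated WT mice and 0.667% and 0.547% in untreated *Hsf1* null mice. With treatment the WT mice had 0.7685% and 0.631%, and the *Hsf1* null mice 0.766% and 0.931%. The exact 95% binomial interval of the shallowest library was 0.571% to 0.590%, and such intervals cover counting error only. The highest share was that of a treated *Hsf1* null mouse, and the other treated *Hsf1* null mouse lay within the range of the treated WT mice. Without *Rplp2*, the member with the most counts, the shares in the treated *Hsf1* null mice were 0.461% and 0.522%, the first inside and the second just above the range of the other mice (0.3615% to 0.5197%).

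**Figure D3:**
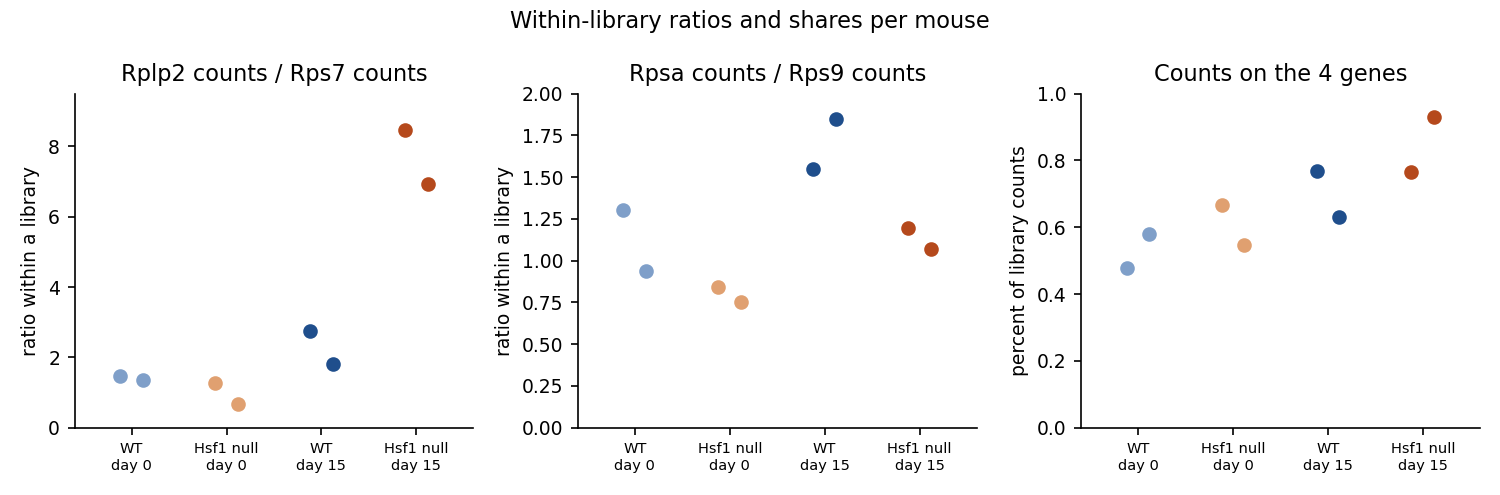
Ratio of *Rplp2* to *Rps7* counts, ratio of *Rpsa* to *Rps9* counts, and percent of library counts on the 4 genes, for each mouse (points) by group, on linear axes from 0. Intervals for counting error on the shares are smaller than the points. *Rplp2* to *Rps7* reached 8.46 and 6.93 in treated *Hsf1* null mice, whereas *Rpsa* to *Rps9*, the pair with the narrowest span, stayed between 0.754 and 1.85 in all 8 mice.

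*Fau* and *Gnb2l1* also encode proteins of the cytosolic ribosome, under symbols that the naming rule leaves out. *Fau*, a ubiquitin-like protein fused to a small-subunit protein, was measured at 2278 and 1399 CPM in untreated and at 1722 and 1295 CPM in treated *Hsf1* null mice, with overlap (adjusted p = 0.646). *Gnb2l1* (now *Rack1*), the scaffold protein on the small subunit, was measured in the same mice at 2724 and 2915 CPM and then at 2903 and 2888 CPM (log2 difference 0.04, 95% interval -0.63 to 0.71). In WT mice neither passed, with log2 differences of 0.16 for *Fau* and -0.30 for *Gnb2l1* (adjusted p = 0.823 and 0.556).

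Other mRNAs known to carry TOP tracts, those of translation factors and their partners, gave calls in *Hsf1* null mice. Of 18 such genes, 4 fell and 1 rose from day 0 to day 15 in *Hsf1* null mice, with a median of -0.05 on the log2 scale, where 11.8% of all genes were called. With the GC and length correction 1 of the 18 was called lower and 0 higher, beside 330 lower and 338 higher of all 14285 genes, and the median of the 18 was -0.24. *Eif3e*, a subunit of the initiation factor that loads mRNA onto the small subunit, fell from 181 and 268 CPM to 52.6 and 98.4 CPM (log2 -1.57, adjusted p = 0.0206). *Eif2s3x*, a subunit of the factor that brings the initiator tRNA, fell by 1.77 on the log2 scale (adjusted p = 0.0258). *Tpt1*, the translationally controlled tumor protein, fell from 1689 and 2226 CPM to 560 and 829 CPM (log2 -1.495, adjusted p = 0.0359). *Naca*, which binds new chains as they leave the ribosome, fell by 1.20 on the log2 scale (adjusted p = 0.0417), and *Hnrnpa1*, an RNA-binding protein, rose by 2.20 (adjusted p = 0.0494). *Hnrnpa1* went from 7.23 and 2.16 CPM to 30.1 and 17.1 CPM, and its lowest value came from the shallow library, where it rests on few reads. DESeq2 called 5 lower and 1 higher, beside 15.2% of all genes. In WT mice 0 of the 18 passed edgeR's test, with 2 under 0.05 before adjustment, 0 called by DESeq2 and a median of -0.30. The genes that edgeR called in *Hsf1* null mice had the same signs in WT. Their log2 changes in WT were -0.59 (*Eif3e*), -0.851 (*Eif2s3x*), -0.892 (*Tpt1*), -0.297 (*Naca*) and 1.24 (*Hnrnpa1*). When the difference in response between genotypes was tested, 0 of the 18 were under 0.05 before adjustment, beside 1239 of all 14371 genes.

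Genes for ribosome assembly mostly stood higher at day 15. Of 39 such genes, 36 had a positive log2 change in WT mice and 5 passed, all of them higher, with a median of 0.65 against 0.005 over all genes, beside 3.47% of all genes called higher. In *Hsf1* null mice 28 were positive and 2 passed, both higher, with a median of 0.38, beside 5.30% of all genes called higher. With the GC and length correction 6 were called higher in WT and 1 in *Hsf1* null mice, beside 408 and 338 of all 14285 genes. *Fbl*, the methyltransferase of the box C/D snoRNPs that modify rRNA, rose from 51.5 and 77.0 CPM to 204 and 217 CPM in WT mice (log2 1.73, adjusted p = 0.0327). *Nhp2* and *Nop10*, partners in the box H/ACA snoRNPs, rose by 1.43 and 1.19 in WT mice (adjusted p = 0.0122 and 0.0237). *Gar1* of the same particle was called in both genotypes (1.24 in WT, adjusted p = 0.0492, and 1.26 in *Hsf1* null mice, adjusted p = 0.0365). In *Hsf1* null mice *Fbl* (1.35), *Nhp2* (0.43) and *Nop10* (0.80) also had positive log2 changes but were not called. *Polr1a*, the largest subunit of the polymerase that makes rRNA, rose by 1.24 in *Hsf1* null mice (adjusted p = 0.0198), from 27.6 and 24.1 CPM to 54.3 and 68.1 CPM. In WT mice its log2 change was 0.715 and was not called. When the difference in response between genotypes was tested, 0 of the 39 were called and 1 was under 0.05 before adjustment. At day 15, *Nhp2* was the 1 gene of the 39 that edgeR called between genotypes (3.17% of all genes), at 210 and 206 CPM in WT and at 83.3 and 109 CPM in *Hsf1* null mice (log2 1.12, adjusted p = 0.0412). At day 15, 9 of the 39 were under 0.05 before adjustment and DESeq2 called 2, both higher in WT mice. At day 0 edgeR called 0, with 3 under 0.05 before adjustment, and DESeq2 called 0. Without the 2 shallow libraries the medians were 0.68 in WT and 0.31 in *Hsf1* null mice, but 0 of the 39 were called in either genotype, beside 4 of all genes in WT and 0 in *Hsf1* null mice.

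The 7 chaperones of single ribosomal proteins had 1 gene higher and 1 lower in *Hsf1* null mice, where 11.8% of all genes were called. *Tsr2*, the escort of RPS26, rose by 1.147 (adjusted p = 0.0436), and *Pdcd2l*, which is linked to RPS2, fell by 1.35 (adjusted p = 0.0462). Of 16 regulators of ribosome production, including the mTOR pathway and MYC, 1 was called in the same comparison: *Rheb*, the GTPase that activates mTOR, fell in *Hsf1* null mice from 44.9 and 58.9 CPM to 14.0 and 17.1 CPM (log2 -1.73, adjusted p = 0.0140). edgeR called 0 genes of these 2 lists in the other 3 comparisons, whereas DESeq2 called 1 regulator higher in WT than in *Hsf1* null mice at day 15. The mitochondrial ribosome, a separate particle that translates the mRNAs of mitochondrial DNA, was compared as another ribosome. Of its 77 protein genes, 3 rose (*Mrpl2*, *Mrpl28* and *Mrpl38*) and 5 fell in *Hsf1* null mice, of which *Mrpl32* had the smallest p (log2 -1.60, adjusted p = 0.0191), with a median of 0.00. These 8 of 77 stand beside 11.8% of all genes called. With the GC and length correction 1 was called higher and 2 lower, beside 338 higher and 330 lower of all 14285 genes. *Mrpl38* alone rose in WT mice (1.28, adjusted p = 0.0270), with a median of 0.14, and was not called with that correction. edgeR called 0 of the 77 between genotypes at either day, with 15 at day 15 and 7 at day 0 under 0.05 before adjustment, and DESeq2 called 1 at day 15 and 0 at day 0.

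**Figure D4:**
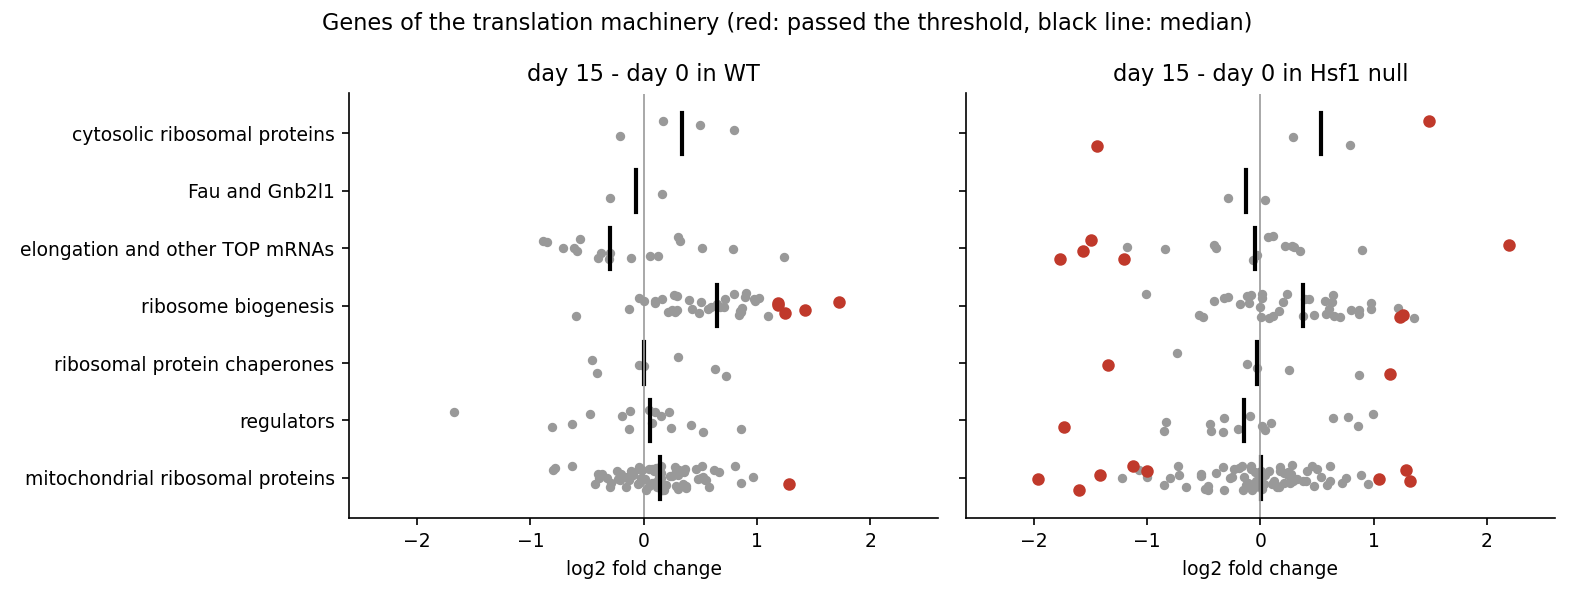
Log2 fold change from day 0 to day 15 of each tested gene (points) in WT mice (left) and *Hsf1* null mice (right), by list. Black lines are medians, red points passed the threshold, and the vertical spread of the points only separates them. Ribosome assembly genes have a median of 0.65 in WT and 0.38 in *Hsf1* null mice, and red points lie on both sides of 0 for the ribosomal proteins, the TOP mRNAs and the mitochondrial ribosomal proteins in *Hsf1* null mice.

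Summed levels of cell type markers differed in the same comparisons. From day 0 to day 15 in *Hsf1* null mice, the summed CPM of 7 B and plasma cell markers went from 598 and 1425 to 246 and 487, that of 10 epithelial markers from 20890 and 15030 to 25090 and 22090, that of 7 smooth muscle markers from 6992 and 6805 to 5286 and 6043, and that of 10 proliferation genes from 424 and 642 to 489 and 1167. The epithelial sums were higher and the B and plasma cell and smooth muscle sums lower at day 15, without overlap, beside the rise of *Rplp2* and the fall of *Rps7*. The B and plasma cell sum was mostly *Jchain*, at 471 and 1378 CPM and then at 46.8 and 237 CPM, and 5 of the 7 markers had a positive log2 change (median 0.97). Of the 10 epithelial markers 8 were positive (median 0.31), of which edgeR called 0 and DESeq2 3 higher, and 5 of the 7 smooth muscle markers were negative (median -0.26), of which both called 0. With the GC and length correction 5 of the 10 epithelial markers were positive (median -0.01), and the smooth muscle median was -0.63. Among their genes, *Jchain* and the epithelial *Car1* fell and *Cdk1*, *Mcm5* and *Top2a* rose. The sum of 6 T cell markers was 22.9 and 7.55 CPM at day 0 and 43.7 and 64.9 CPM at day 15, without overlap, and *Cd3e* rose. The days overlapped for the sums of 6 goblet cell markers (15240 and 12350 against 23990 and 13190 CPM), 9 myeloid markers (302 and 416 against 180 and 529 CPM) and 7 fibroblast markers (793 and 1157 against 459 and 1447 CPM), of which *Dcn* fell. No marker in the table had 3 or fewer counts in all mice. In bulk tissue, fewer cells of a type cannot be told apart from less RNA per cell, and the part of tissue make-up in the values of the ribosomal protein genes was not tested.

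In WT mice, beside the values of *Rpsa*, 5 of 7 smooth muscle markers and 2 of 6 goblet cell markers fell from day 0 to day 15, while 2 of 9 myeloid markers (*S100a8* and *S100a9*), 1 of 6 T cell markers and 2 of 10 proliferation genes rose. DESeq2, which called 12.1% of all genes here against 7.74% in edgeR, called 6 smooth muscle and 3 goblet cell markers lower, and 6 myeloid markers, all 6 T cell markers and 4 proliferation genes higher. All 10 proliferation genes had a positive log2 change (median 0.86), as did 36 of the 39 ribosome assembly genes, and the part of proliferation in the latter was not tested. All 6 T cell markers were also under 0.05 before adjustment in edgeR (median 2.02). None of the B and plasma cell, epithelial or fibroblast markers passed edgeR's test in that comparison, where 5 B and plasma cell markers and 0 of the others were under 0.05 before adjustment and DESeq2 called 1 and 0. Between genotypes at day 15, 2 myeloid markers (*S100a8* and *S100a9*) and 2 B and plasma cell markers (*Jchain* and *Mzb1*) were higher, and 2 goblet cell markers (*Clca1* and *Fcgbp*) lower, in WT mice. DESeq2, with 8.19% of all genes called, called 5 myeloid, 2 B and plasma cell and 4 goblet cell markers in the same directions. All 7 smooth muscle markers had lower values in WT mice (median -0.95, 6 under 0.05 before adjustment) and all 7 fibroblast markers higher values (median 1.145, 3 under 0.05), of which edgeR called 0 and DESeq2 2 in each list. The 10 epithelial markers had a median log2 difference of -0.60 at day 15, beside -0.32 for the 4 ribosomal protein genes, with all 10 negative and 0 past edgeR's test, under 0.05 before adjustment or called by DESeq2. Skeletal muscle markers, of which 8 of 12 were in the table, summed to 19.4 to 47.9 CPM in all mice, and *Ckm* fell in WT while *Acta1* rose in *Hsf1* null mice. At day 0 no marker of any list was called by edgeR or DESeq2, which called 0% and 0.118% of all genes. All 7 B and plasma cell, 6 T cell and 9 myeloid markers had higher values in WT (medians 0.93, 0.83 and 0.66). Of these, 1, 0 and 1 were under 0.05 before adjustment. Higher values in WT were also seen for 9 of 10 proliferation genes, 6 of 7 smooth muscle and 4 of 7 fibroblast markers. Lower values in WT were seen for 8 of 10 epithelial and 4 of 6 goblet cell markers.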

How the data were processed

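The authors aligned reads from polyA RNA of distal colon to mm10 with STAR and deposited raw counts per gene symbol. The program, strand setting and annotation used for counting are not given in the sources used here. A second deposited table, of the same counts divided by DESeq2 size factors, was not used. Groups and replicate numbers come from the sample labels. Nothing in the labels pairs the mice.

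The deposited counts were fitted with edgeR 4.0.16 (R 4.3.3): TMM factors, genes with a mean normalized count above 5 (14371 of 15859), 1 quasi-likelihood model of the 4 groups over all 8 mice (prior degrees of freedom 5.97), and Benjamini-Hochberg adjustment over all genes of a comparison. A gene was called at an adjusted p under 0.05 with an absolute log2 fold change above 1. CPM uses TMM-scaled totals, and CPM per kb divides by the length of the principal transcript. Of the symbols, 15276 matched GENCODE M21 (GRCm38) directly, 459 through an older symbol and 124 not at all. P-values rest on a spread between mice that is pooled over the 4 groups of 2 mice and moderated with that of other genes. The fits were tested on simulated data first.

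Members of the ribosome, the related lists (other subunits, TOP mRNAs, ribosome biogenesis, chaperones, regulators, mitochondrial ribosomal proteins) and the cell markers were chosen with earlier results of these data known. Among the lists, up to 3 called genes of each comparison with the smallest p were to be named, and a few more are named where a list has 5 or fewer calls. Outside this rule, *Mrpl28* is named with the other mitochondrial ribosomal protein genes called higher. Members were to be named by level, by the size of passing changes or the smallest p, and by fixed names. Since there are few members, the 4 described are named throughout. The values of 2 further genes are not reported here. Paralog pairs of ribosomal proteins were not analysed here. Alternatives were DESeq2 1.42.0, other scaling factors, other filters, GC and length offsets, a replicate block, thinned counts, only the groups compared, and each mouse left out. Leaving out both shallow libraries was added after the data were seen.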

Additional observations from a re-analysis of the deposited data

Results flagged for a closer look

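*Rps7* is listed here because its response to AOM-DSS differed between genotypes in a test of the difference itself, before correction only. The change from day 0 to day 15 was -0.21 on the log2 scale in WT mice and -1.44 in *Hsf1* null mice. The difference was 1.23 (SE 0.48), with an adjusted p of 0.52 over all genes, so it failed the correction. Both *Hsf1* null mice at day 15 (412 and 599 CPM) lay below the other 6 mice (720 to 1413 CPM). Over 20 alternatives the difference kept its sign, from 0.88 to 1.77, with adjusted p from 0.246 to 1.0. Groups of 2 mice were not tested for outlying mice.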

How the results depend on the processing

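In *Hsf1* null mice, the count of called members (2 in the main analysis, *Rplp2* and *Rps7*) was 1 with DESeq2's size factors, upper-quartile factors, the replicate block, or GC and length offsets, each of which kept *Rps7*, and 0 with the replicate block together with those offsets or without both shallow libraries; the count past the adjusted p alone was the same in each case. Leaving out each mouse gave 0 to 1. For *Rplp2* the adjusted p was 0.0501 and 0.0503 with the other factors and 0.068 with the block, against 0.0498. Without both shallow libraries, 0 genes in all were called in *Hsf1* null mice and 4 in WT mice, so this setting leaves few calls for any gene. In WT mice DESeq2 put 1 member past the adjusted p alone, against 0.

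The median of the members was -0.794 at day 0 between genotypes without both shallow libraries, and -0.548 to -0.094 with each mouse left out. In WT mice over time it was 0.076 with the offsets, 0.073 with the block and offsets, 0.565 without both shallow libraries, and 0.077 to 0.583 with each mouse left out. In *Hsf1* null mice over time it was 0.287 with the offsets and 0.289 with the block and offsets. The cause was not tested. With *Rplp2* left out, the shares of library counts were 0.3615% and 0.4095% (WT day 0), 0.489% and 0.454% (*Hsf1* null day 0), 0.5197% and 0.474% (WT day 15), and 0.461% and 0.522% (*Hsf1* null day 15). With the 50 most abundant genes that are no members left out of the totals, the shares of all members were 0.542% and 0.675% (WT day 0), 0.782% and 0.627% (*Hsf1* null day 0), 0.867% and 0.710% (WT day 15), and 0.915% and 1.07% (*Hsf1* null day 15).

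Replicate numbers are shared by different mice. Correlations of same-numbered deviations between groups ran from -0.29 to 0.15. With 2 mice a group, these values cannot settle whether same-numbered mice shared a batch. The block alone changed no call of a member other than that of *Rplp2*. Together with the offsets the block also ended that of *Rps7* (adjusted p = 0.0566, against 0.0336 with the offsets alone). Scaling by library totals alone moved the median of all genes at day 15 between genotypes from 0.035 to 0.183, and the members' values move with it. The model of only the groups compared cannot hold the interaction and gave no value for it. Each of the 4 genes had at least 2477 counts even in the 2 shallow libraries, so counting error is small at this depth, and the number of mice limits the precision.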
